A study of Homo sapiens with 9 samples.

Results

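The genes described here are 36 genes of homologous recombination and of the Fanconi anaemia pathway, measured by RNA sequencing in 9 libraries of cells labelled BxPC3, a human pancreatic adenocarcinoma line. They were named one by one as a list, out of 56865 genes whose reads were summed and 13914 that passed the filter on low counts, and all 36 passed it. RAD52 was put on the list because its reads were among those that differed most between MS172 and DMSO. It was thus chosen by its fold change of MS172 against DMSO, and its values in the comparisons that involve MS172 are therefore given as a description with no test.

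The libraries form 3 groups of 3, namely cells given MS172, cells given PK9328 and cells given the vehicle DMSO. All of them carry the genotype label p53Y220C/-, that is, a p53 protein with the Y220C change and no other allele, and all were grown in RPMI medium with serum. The protocol gives a dose of 5 µM and a time of 6 h, and it names PK9328 and MS78 where titles and treatment labels name MS172, so the dose and time of MS172 rest on a protocol with another compound name. PK9328 is known from the literature as a ligand of the Y220C mutant of p53. All libraries come from a single line, and the labels do not say that replicates were separate cultures, so the p-values below measure only the spread between these libraries, which may be technical. The same 3 DMSO libraries serve both compounds.

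The libraries held 24077353 to 28031886 estimated reads each of poly(A)-selected RNA. Within a group, the lowest correlation between libraries was 0.989 to 0.990. Sequenced fragments were shorter in the PK9328 libraries (250 to 263 bases) than in the MS172 (274 to 293 bases) and DMSO libraries (281 to 289 bases). The labelled cell type was only partly borne out by its markers. Among 15 markers of ductal epithelium, 8 stayed under 1 CPM (counts scaled to library size) throughout, among them EPCAM with at most 0.0745 CPM and CDH1 with at most 0.0417 CPM, whereas KRT18 stood at 785 CPM and the mesenchymal gene VIM at 9391 CPM with DMSO. The summed ductal and epithelial markers came to 2630 to 2794 CPM with MS172, 2020 to 2100 CPM with PK9328 and 2167 to 2336 CPM with DMSO. The 12 mesenchymal markers, of which 7 lay under 1 CPM in every library, summed to 12405 to 12928 CPM with MS172, 9984 to 10252 CPM with PK9328 and 11793 to 11971 CPM with DMSO, and the part of these differences in the results below was not tested. The 4 acinar and endocrine markers were at 0 in every library.

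Homologous recombination repairs a broken chromosome by copying the sister chromatid. The MRE11, RAD50 and NBN complex senses the break, nucleases cut back one strand, and mediator proteins, among them BRCA2, PALB2, RAD51B, RAD51C, RAD51D, XRCC2 and XRCC3, prepare the single strand to invade the sister. RAD52 is a mediator that also anneals complementary strands. The Fanconi core complex adds ubiquitin to FANCD2 and FANCI at crosslinked DNA and hands the lesion to nucleases and to recombination. Pancreatic cancers with inherited defects of BRCA1, BRCA2 or PALB2 are known for their sensitivity to platinum drugs and PARP inhibitors.

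The start regions of RAD52, XRCC2, BARD1 and RAD51D are shown first. RAD52 is the gene chosen by its fold change, with no test. XRCC2, BARD1 and RAD51D carry the lowest fold changes of MS172 against DMSO among the members that passed the test. Each run is the gene strand, 5′ to 3′, from 250 bases before to 50 bases after an annotated RefSeq start on GRCh38.p14. The window of RAD52 is chr12:949645-949944, minus strand. That of XRCC2 is chr7:152676092-152676391, minus strand, that of BARD1 is chr2:214809634-214809933, minus strand, and that of RAD51D is chr17:35119811-35120110, minus strand. Capitals mark matches, on either strand, to the SP1 box (GGGCGG), the CCAAT box (CCAAT), the cell cycle homology region (TTTGAA), NRF1 (by its name), E2F (TTTGGCGC, TTTCCCGC, TTTCGCGC or TTTGCCGC) and ATF/CREB (TGACGTCA).
RAD52: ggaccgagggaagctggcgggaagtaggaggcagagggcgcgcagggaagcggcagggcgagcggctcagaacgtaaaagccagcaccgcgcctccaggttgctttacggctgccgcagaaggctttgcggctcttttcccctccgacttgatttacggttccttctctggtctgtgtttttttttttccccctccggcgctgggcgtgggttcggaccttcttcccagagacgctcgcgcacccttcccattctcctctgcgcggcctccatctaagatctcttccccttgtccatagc
XRCC2: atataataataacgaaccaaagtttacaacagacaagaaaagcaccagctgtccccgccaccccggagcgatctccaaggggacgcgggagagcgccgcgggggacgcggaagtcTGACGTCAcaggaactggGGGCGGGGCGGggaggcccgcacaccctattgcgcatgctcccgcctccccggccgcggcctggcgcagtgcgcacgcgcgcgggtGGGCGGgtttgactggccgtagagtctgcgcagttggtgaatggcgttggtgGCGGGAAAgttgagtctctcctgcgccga
BARD1: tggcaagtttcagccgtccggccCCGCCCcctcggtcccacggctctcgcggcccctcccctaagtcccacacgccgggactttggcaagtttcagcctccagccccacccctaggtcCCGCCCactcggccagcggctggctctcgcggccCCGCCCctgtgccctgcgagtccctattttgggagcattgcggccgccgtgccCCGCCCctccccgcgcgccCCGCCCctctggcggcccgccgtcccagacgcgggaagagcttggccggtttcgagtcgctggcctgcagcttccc
RAD51D: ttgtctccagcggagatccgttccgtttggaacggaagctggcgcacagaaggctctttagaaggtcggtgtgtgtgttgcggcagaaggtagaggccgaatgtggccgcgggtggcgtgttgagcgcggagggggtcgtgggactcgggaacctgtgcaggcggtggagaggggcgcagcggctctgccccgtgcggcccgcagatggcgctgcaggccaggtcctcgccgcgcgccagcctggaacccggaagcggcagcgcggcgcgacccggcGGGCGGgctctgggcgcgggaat

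The 4 windows differed in these letters. The RAD52 window held none of the 6 motifs, the XRCC2 window held 3 SP1 boxes (a pair of them overlapping), 1 E2F and 1 ATF/CREB match, the BARD1 window 5 SP1 boxes and the RAD51D window 1. RefSeq windows were found for 32 of the 36 members. An SP1 box was present in 22 of these 32 and in 44.9% of all 34796 windows, a CCAAT box in 13 and in 34.6%, and the cell cycle homology region in 3 and in 15.2%. E2F letters were present in 5 and in 3.31% of all windows, ATF/CREB letters in 3 and in 1.84%, and NRF1 letters in 1 and in 1.23%. Of the 8 members with a window that fell with MS172, 5 held an SP1 box, 4 a CCAAT box, 1 E2F letters, 1 ATF/CREB letters and 0 the cell cycle homology region, against 17, 9, 4, 2 and 3 of the 23 that did not fall. For p53, only a single repeat unit of its site was searched, by its name and without capitals, and not the full site. This repeat unit was present in 1 of the 32 windows, that of BLM, and in 6.65% of all windows. Whether any window held a full p53 site was not tested.

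With MS172 against DMSO, 3 of the 7 mediator genes other than RAD52 fell and 2 of the 3 genes around BRCA1 fell, while none of the members rose. XRCC2 fell to 0.493-fold, BARD1 to 0.756-fold, RAD51D to 0.764-fold and PALB2 to 0.791-fold. By edgeR's quasi-likelihood test with Benjamini-Hochberg adjustment over all 13914 genes, 9 of the 35 members other than RAD52 fell and 0 rose, and the remaining 26 did not pass the test. Of all genes tested, 17.2% fell and 17.9% rose, 35.1% in all. At an unadjusted p under 0.05, 13 members were lower and 0 higher, against 3087 lower and 3015 higher of all 13914 genes. DESeq2 and limma-voom called 7 and 8 members lower and 0 higher. The fold change was below 0 on the log2 scale in 32 of the 35 members and in 53.2% of all genes, and its median was -0.16 among the members and -0.02 over all genes. In 13 members every MS172 library lay below every DMSO library, and in 0 every one lay above, against 22.7% and 22.0% of all genes.

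**Figure D1:**
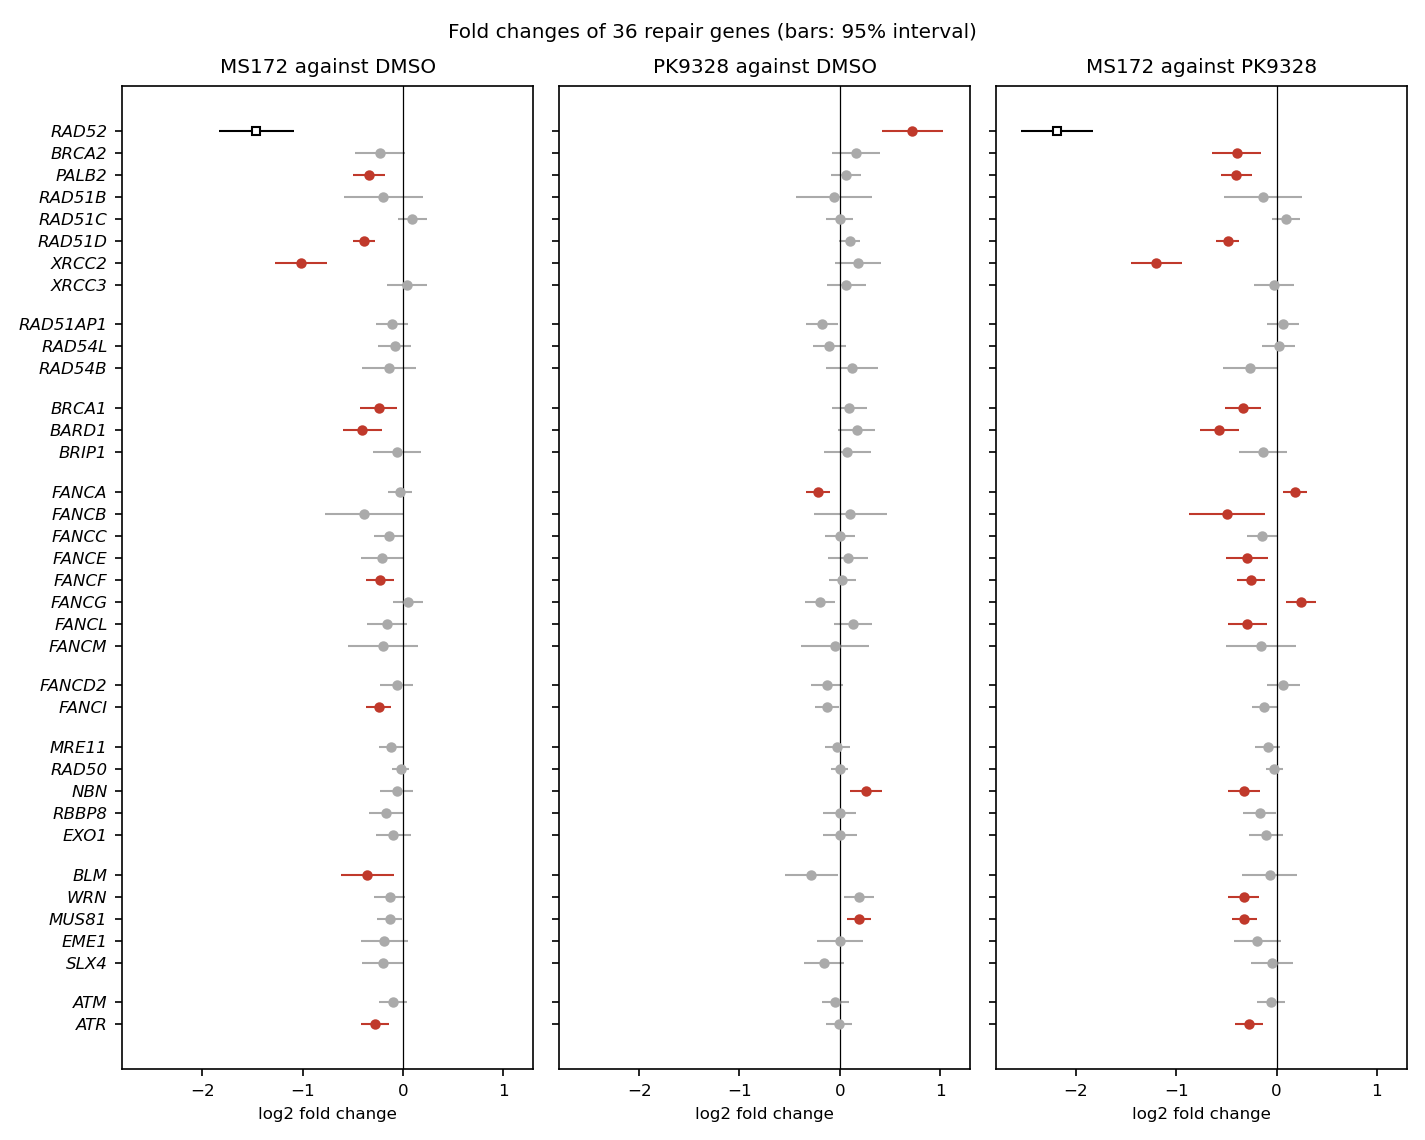
Log2 fold change (points, red where the edgeR adjusted p was under 0.05, grey otherwise, open squares where no test is given) with its 95% interval (bars) for the 36 genes, ordered by role, with MS172 against DMSO on the left, PK9328 against DMSO in the middle and MS172 against PK9328 on the right. With MS172, 32 of the 35 members other than RAD52 lie left of 0, while with PK9328 they lie on both sides of it.

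RAD52 (ENSG00000002016.17, minus strand of chr12:912077-990053 on GRCh38) had 1.84, 1.24 and 1.33 CPM with MS172, 7.27, 6.39 and 6.55 CPM with PK9328 and 3.29, 4.86 and 4.03 CPM with DMSO. The 3 groups did not overlap, with PK9328 highest and MS172 lowest. These levels rest on 28 to 45 estimated reads per library with MS172, 176 to 198 with PK9328 and 85 to 140 with DMSO. The fold change of MS172 against DMSO was -1.46 ± 0.18 (log2, SE), or 0.363-fold, and that of MS172 against PK9328 was -2.19 ± 0.18, or 0.220-fold, both without a test. With PK9328, RAD52 rose to 1.65-fold (log2 0.72 ± 0.15 SE, 95% interval 0.42 to 1.03, edgeR adjusted p = 0.00104), a comparison that shares its DMSO libraries with the one that chose the gene. That rise was lost when fragment length entered the fit as a covariate (log2 0.32, adjusted p = 0.77), and PK9328 and fragment length move together in these libraries. RAD52 shares 233 exonic bases on the same strand with AC004803.1, which had at most 1.59 CPM, against 1.24 to 1.84 CPM for RAD52 with MS172, and how many reads could belong to either gene was not measured.

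Of the 19 annotated transcripts of RAD52, 16 were given reads in at least 1 library, and few of these rested on enough reads to compare. The main coding transcript RAD52-202, with 12 exons and 2710 bases, had 22.1, 18.5 and 12.5 estimated reads with MS172, 75.5, 50.7 and 63.4 with PK9328 and 34.3, 26.2 and 38.6 with DMSO. It lay in the same order as the gene and did not overlap between groups. Its share of the gene's reads was 51.8% ± 14.3 with MS172, 33.8% ± 5.86 with PK9328 and 32.7% ± 12.1 with DMSO (SD, n = 3 each). RAD52-207, annotated as a target of nonsense-mediated decay with 14 exons, had 0, 0 and 12.4 estimated reads with MS172, 72.4, 72.3 and 43.0 with PK9328 and 0, 68.6 and 39.5 with DMSO. One DMSO library thus lacked it, as did 2 of the MS172 libraries, and no order of the groups can be read from it.

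**Figure D2:**
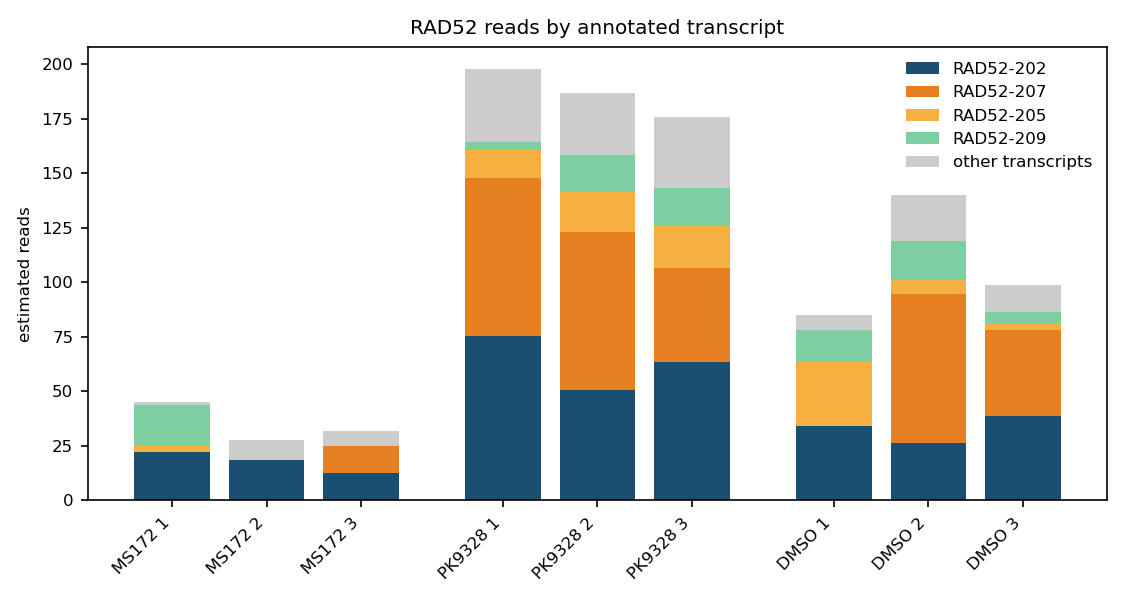
Estimated reads of RAD52 in each library (bars), stacked by annotated transcript, with MS172 on the left, PK9328 in the middle and DMSO on the right. The MS172 bars reach 28 to 45 reads and the PK9328 bars 176 to 198, and RAD52-202 is present in every library.

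Among the other mediator genes, XRCC2 had the lowest fold change. XRCC2, which works with RAD51D, RAD51B and RAD51C in one complex, had 4.37, 3.91 and 5.01 CPM with MS172, 10.8, 10.3 and 9.49 CPM with PK9328 and 8.37, 10.6 and 7.91 CPM with DMSO. Every MS172 library lay below every other library, while PK9328 and DMSO overlapped. It fell by 1.02 ± 0.13 on the log2 scale with MS172 against DMSO (SE, edgeR adjusted p = 2.39e-07) and by 1.20 ± 0.12 against PK9328 (adjusted p = 3.92e-09), while PK9328 against DMSO gave 0.18 ± 0.11 (adjusted p = 0.313). Its start region is the one shown above with an E2F and an ATF/CREB match.

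RAD51D, which binds XRCC2, had 35.0, 35.0 and 38.3 CPM with MS172, 47.1, 50.6 and 54.0 CPM with PK9328 and 47.3, 47.4 and 47.2 CPM with DMSO. It fell by 0.39 ± 0.06 on the log2 scale with MS172 against DMSO (SE, edgeR adjusted p = 2.72e-06) and by 0.49 ± 0.06 against PK9328 (adjusted p = 2.14e-08). PK9328 and DMSO overlapped and did not differ by the test (0.10 ± 0.05, adjusted p = 0.235). RAD51B, RAD51C and XRCC3 did not pass the test in any comparison. RAD51B had 2.37 ± 0.400 CPM with MS172, 2.60 ± 0.00453 CPM with PK9328 and 2.70 ± 0.493 CPM with DMSO (SD, n = 3 each). RAD51C and XRCC3, which form a complex of their own, had fold changes of 0.09 and 0.04 (log2) with MS172 against DMSO.

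BRCA2, a mediator that binds PALB2, had 5.06, 4.88 and 5.55 CPM with MS172, 7.23, 7.04 and 6.11 CPM with PK9328 and 6.20, 6.24 and 5.75 CPM with DMSO. The MS172 libraries were the lowest 3. The difference from DMSO did not pass the test (log2 -0.23 ± 0.12 SE, 95% interval -0.48 to 0.02, edgeR adjusted p = 0.143), whereas against PK9328 BRCA2 fell by 0.40 ± 0.12 (adjusted p = 0.00755). The call against PK9328 was lost with counts rebuilt from TPM with a common length per gene (log2 -0.563, edgeR adjusted p = 0.4). It was also lost with fragment length as a covariate (log2 -0.62, edgeR adjusted p = 0.089). PALB2, the bridge between BRCA1 and BRCA2, had 13.996, 12.87 and 12.93 CPM with MS172, 17.2, 18.3 and 17.1 CPM with PK9328 and 16.4, 17.6 and 16.3 CPM with DMSO. It fell by 0.34 ± 0.08 with MS172 against DMSO (adjusted p = 0.000982) and by 0.40 ± 0.08 against PK9328 (adjusted p = 7.37e-05). When counts were rebuilt from TPM with a common length per gene, the direction of PALB2 turned (log2 0.11 against DMSO and 0.155 against PK9328). Nearly all of its reads lay on PALB2-201, with 93.1% ± 1.55 with MS172, 97.2% ± 3.61 with PK9328 and 97.7% ± 0.766 with DMSO (SD, n = 3 each).

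BRCA1 and its partner BARD1, which together form a ubiquitin ligase at breaks, both fell with MS172. BARD1 had 9.51, 9.36 and 8.72 CPM with MS172, 14.5, 13.5 and 13.0 CPM with PK9328 and 12.6, 13.3 and 10.6 CPM with DMSO, so that the MS172 libraries lay apart. It fell by 0.40 ± 0.10 on the log2 scale against DMSO (SE, edgeR adjusted p = 0.00153) and by 0.57 ± 0.10 against PK9328 (adjusted p = 1.11e-05). BRCA1 had 12.8, 11.8 and 14.3 CPM with MS172, 16.3, 17.0 and 15.9 CPM with PK9328 and 14.3, 17.4 and 14.3 CPM with DMSO. The highest MS172 library of BRCA1 met the lowest DMSO library, and the fall of 0.24 ± 0.09 (adjusted p = 0.0321) was lost in 5 of 15 alternatives, with adjusted p over all alternatives between 0.013 and 0.28. It was lost without MS172 library 1, without MS172 library 2 and without DMSO library 2. Against PK9328, BRCA1 fell by 0.34 ± 0.09 (adjusted p = 0.00208). The helicase BRIP1, the third gene of this group, did not pass the test in any comparison.

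**Figure D3:**
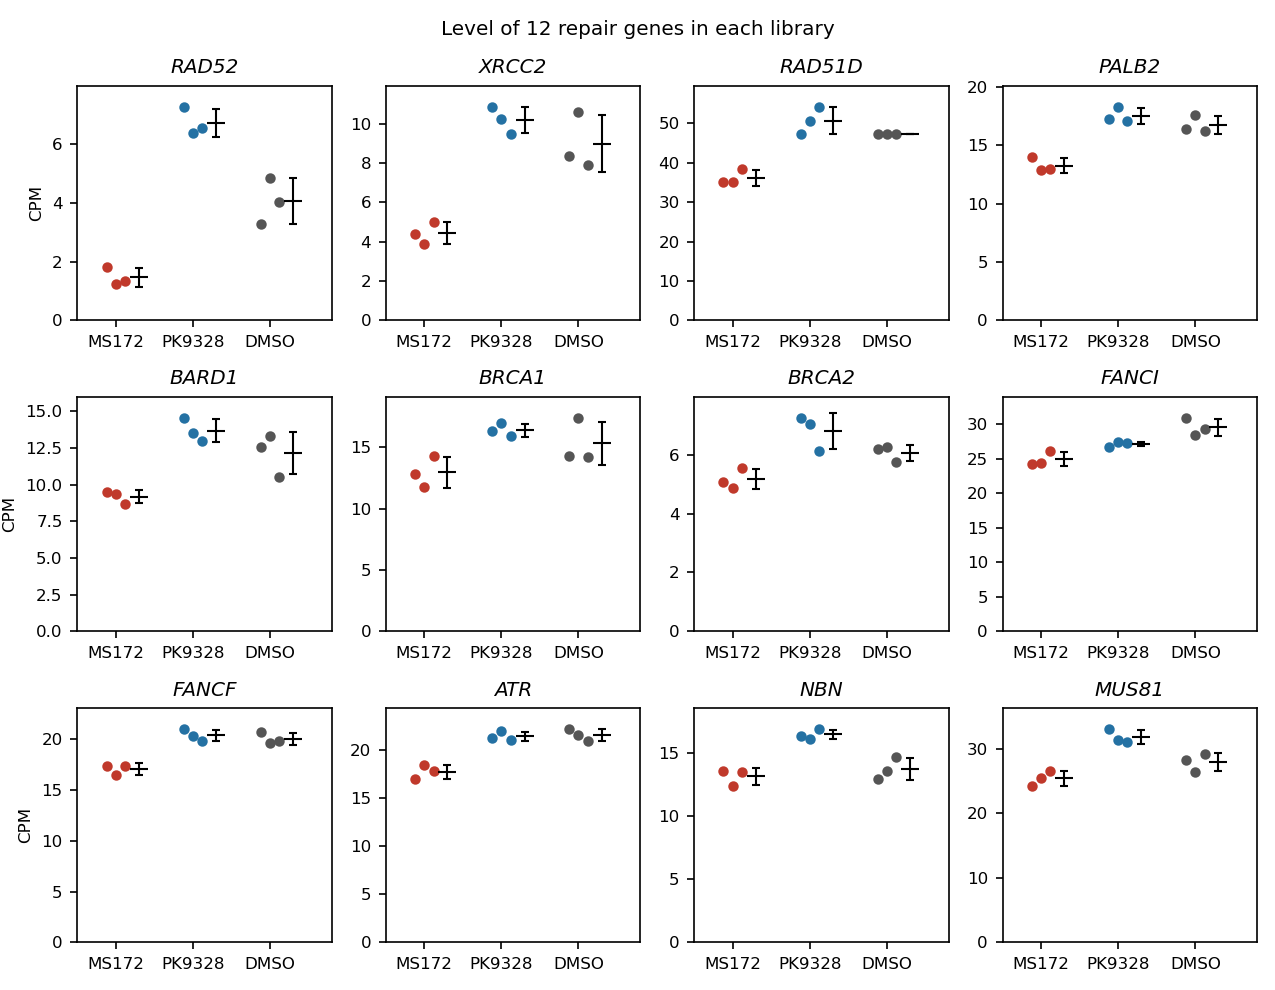
CPM in each library (points) with the group mean and SD (bars) for 12 of the genes, each panel on its own axis from 0, with MS172 on the left, PK9328 in the middle and DMSO on the right. XRCC2 and RAD52 show the lowest MS172 libraries relative to the other groups, and the BRCA1 libraries of MS172 and DMSO meet at 14.3 CPM.

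The 3 genes of later strand exchange, RAD51AP1, RAD54L and RAD54B, gave 0 calls in all 3 comparisons with edgeR. Their fold changes with MS172 against DMSO were -0.11, -0.08 and -0.14 (log2). At an unadjusted p under 0.05, 0 of them were lower with MS172 against DMSO and 1 was lower with PK9328 against DMSO, and DESeq2 and limma-voom gave 0 calls as well.

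In the Fanconi core complex, 1 of 8 genes fell (12.5%) with MS172 against DMSO and 0 rose, against 17.2% and 17.9% of all genes. The gene that fell was FANCF, an adaptor that holds the core complex together, with 17.4, 16.4 and 17.4 CPM with MS172, 21.0, 20.3 and 19.8 CPM with PK9328 and 20.7, 19.6 and 19.8 CPM with DMSO. The MS172 libraries lay below all others, and the fall was 0.23 ± 0.07 against DMSO (log2, SE, edgeR adjusted p = 0.00948) and 0.25 ± 0.07 against PK9328 (adjusted p = 0.00285). The median fold change of the 8 genes was -0.18 (log2). FANCG had the highest value at 0.05, and FANCB, one of the genes with the fewest reads, the lowest at -0.39 (adjusted p = 0.109). At an unadjusted p under 0.05, 3 of the 8 were lower and 0 higher, against 3087 lower and 3015 higher of all 13914 genes. DESeq2 and limma-voom each called 1 of the 8 lower and 0 higher.

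FANCI, which with FANCD2 forms the clamp that the core complex marks, had 24.2, 24.4 and 26.2 CPM with MS172, 26.7, 27.4 and 27.2 CPM with PK9328 and 30.8, 28.4 and 29.3 CPM with DMSO. All 3 groups lay apart, with DMSO highest. It fell by 0.24 ± 0.06 with MS172 against DMSO (log2, SE, edgeR adjusted p = 0.00202), while PK9328 against DMSO gave -0.12 ± 0.06 (adjusted p = 0.165). When counts were rebuilt from TPM with a common length per gene, the value was -0.22 and did not pass the test (adjusted p = 0.48). FANCD2 did not pass the test in any comparison and gave -0.06 ± 0.08 with MS172 against DMSO.

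Of the 5 genes that sense and cut back broken ends, 0 passed edgeR's test with MS172 against DMSO, where 35.1% of all genes did. At an unadjusted p under 0.05 there was 1 lower and 0 higher, with 0 calls by DESeq2 and limma-voom. RAD50, a partner of MRE11 and the member with the most reads, had 114, 112 and 117 CPM with MS172, 123, 114 and 112 CPM with PK9328 and 112, 121 and 115 CPM with DMSO, which gave -0.02 ± 0.04 (log2, SE, 95% interval -0.11 to 0.06). NBN, its partner in break sensing, had 13.5, 12.4 and 13.5 CPM with MS172, 16.4, 16.1 and 16.9 CPM with PK9328 and 12.9, 13.6 and 14.7 CPM with DMSO. The PK9328 libraries were the highest 3. NBN rose by 0.26 ± 0.08 with PK9328 against DMSO (log2, SE, edgeR adjusted p = 0.0203) and was lower by 0.32 with MS172 against PK9328 (-0.32 ± 0.08, adjusted p = 0.00118).

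Among helicases and nucleases that process joined molecules, BLM fell with MS172. BLM had 6.81, 5.73 and 4.59 CPM with MS172, 6.68, 5.37 and 5.96 CPM with PK9328 and 7.21, 6.90 and 7.82 CPM with DMSO, with the 3 DMSO libraries above all others. The fall with MS172 was 0.35 ± 0.13 (log2, SE, edgeR adjusted p = 0.0354). It was lost with DESeq2 and without MS172 library 2, MS172 library 3, DMSO library 1 or DMSO library 3, and its value turned to 0.0155 when counts were rebuilt from TPM. MUS81, a nuclease that cuts stalled forks, had 24.3, 25.5 and 26.6 CPM with MS172, 33.0, 31.4 and 31.1 CPM with PK9328 and 28.3, 26.5 and 29.1 CPM with DMSO. It rose by 0.19 ± 0.06 with PK9328 against DMSO (adjusted p = 0.0274) and was lower with MS172 than with PK9328 (-0.32 ± 0.06, adjusted p = 5.83e-05). Both calls were lost when counts were rebuilt from TPM, where the value against PK9328 was -0.000313 (adjusted p = 1). MUS81 shares 759 exonic bases on the opposite strand with CFL1, which reached 1258 CPM. The strand setting of the authors' counting is not given in the sources used here, so the values of MUS81 are uncertain. The same holds for XRCC3, which shares 5756 exonic bases with KLC1 on the opposite strand, RAD54L (806 bases with LRRC41), EME1 (541 with LRRC59) and FANCI (458 with POLG). It also holds for FANCL, which shares 452 bases on the opposite strand with VRK2, a gene that reached 24.0 CPM. ATM shares 143 bases on the opposite strand with NPAT (at most 21.6 CPM), and MRE11 shares 225 with ANKRD49 (at most 5.46 CPM). On the same strand RAD54B shares 3139 bases with FSBP and RAD50 7784 with AC116366.3. RAD51D shares 905 on the same strand with RAD51L3-RFFL, which had at most 0.855 CPM. Other overlaps of members are not listed here.

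WRN, a helicase of the same family as BLM, had 16.4, 14.8 and 17.3 CPM with MS172, 20.7, 20.3 and 19.9 CPM with PK9328 and 16.8, 18.8 and 17.6 CPM with DMSO. It was lower with MS172 than with PK9328 (log2 -0.33 ± 0.07 SE, edgeR adjusted p = 0.000541), with no call against DMSO for either compound. ATR, the kinase that responds to single-stranded DNA, had 17.0, 18.5 and 17.9 CPM with MS172, 21.3, 22.0 and 21.1 CPM with PK9328 and 22.2, 21.6 and 21.0 CPM with DMSO. The MS172 libraries lay below all others, and ATR fell by 0.28 ± 0.07 against DMSO (adjusted p = 0.00155) and by 0.27 ± 0.07 against PK9328 (adjusted p = 0.00127). Both falls were lost when counts were rebuilt from TPM (log2 -0.02 against DMSO, adjusted p = 0.92, and -0.03 against PK9328, adjusted p = 0.86). ATM, the kinase that responds to breaks, gave -0.10 ± 0.07 with MS172 against DMSO (95% interval -0.24 to 0.04).

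With PK9328 against DMSO, few members changed. Of the 36 members, RAD52, NBN and MUS81 rose and FANCA fell, and 32 did not pass the test. The fold change was below 0 in 15 of the 36 and in 49.5% of all genes. Over all genes, 7.98% rose and 7.48% fell, 15.5% in all, so the members' share is near that of all genes. The median fold change was 0.0054 among the members (log2) and 0.0023 over all genes. FANCA, a scaffold of the core complex, had 27.2, 28.3 and 28.7 CPM with PK9328 and 32.0, 34.5 and 31.2 CPM with DMSO. The groups did not overlap, and the fall was 0.22 ± 0.06 (SE, edgeR adjusted p = 0.00916). With MS172 FANCA had 31.8, 32.9 and 31.0 CPM and overlapped DMSO. FANCA shares 2302 exonic bases with ZNF276 on the opposite strand, which had at most 15.1 CPM, so its values are uncertain in part. With fragment length as a covariate, edgeR called 109 genes higher and 66 lower of all 13914, and 0 members in either direction. FANCA then stood at -0.22 and MUS81 at 0.29, and RAD52 and NBN at 0.32 and 0.11 (log2). Single libraries also decided 3 of them. FANCA was lost without DMSO library 2 or PK9328 library 1, NBN without DMSO library 1, PK9328 library 1 or PK9328 library 3, and MUS81 without DMSO library 1, DMSO library 2, PK9328 library 1 or PK9328 library 2.

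Set against each other, the compounds differed in more members, as they did in more of all genes. With MS172 against PK9328, 14 of the 35 members other than RAD52 were lower (40%) and 2 were higher (5.71%). Of all genes, 24.4% were lower and 23.3% higher, 47.7% in all. The members' share called in either direction is thus near that of all genes, while their split between lower and higher is not. The 14 were BRCA2, PALB2, RAD51D, XRCC2, BRCA1, BARD1, FANCB, FANCE, FANCF, FANCL, NBN, WRN, MUS81 and ATR. The 2 that were higher were FANCA (log2 0.18 ± 0.06 SE, edgeR adjusted p = 0.00977) and FANCG, another subunit of the core complex, with 17.3, 18.4 and 18.1 CPM with MS172 and 14.3, 15.2 and 16.0 CPM with PK9328 (0.24 ± 0.07, adjusted p = 0.008). The median fold change was -0.15 among the members and -0.03 over all genes (log2). In 15 members all MS172 libraries lay below all PK9328 libraries and in 3 all lay above, against 29.1% and 26.3% of all genes. FANCB was lost without MS172 library 1, MS172 library 2, PK9328 library 2 or PK9328 library 3, FANCL without MS172 library 1, PK9328 library 1 or PK9328 library 2, and FANCG without PK9328 library 1. With fragment length as a covariate, 1368 of all genes were higher and 1106 lower, and of the members 6 were lower and 0 higher. BRCA2, BRCA1 and FANCB stood at -0.62, -0.40 and -0.63 (log2) there without a call. PALB2, WRN and FANCF stood at -0.346, -0.293 and -0.275, also without a call. FANCE and NBN lost their calls with smaller values, at -0.17 and -0.163 there against -0.295 and -0.324 without the covariate. RAD51D, XRCC2, BARD1, FANCL, MUS81 and ATR were the genes lower there.

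Levels per length put RAD52 near the bottom of the list. On the TPM scale, which corrects for transcript length, RAD51C stood highest with DMSO at 33.6 ± 2.25 TPM, followed by RAD50 at 26.9 ± 2.15 TPM and MUS81 at 21.0 ± 2.96 TPM (SD, n = 3 each). RAD52 took place 31 of 36 at 2.61 ± 0.414 TPM, next to XRCC2 at 2.81 ± 0.570 TPM, from which it did not differ beyond the spread. BRCA2 was lowest at 1.28 ± 0.585 TPM, though its neighbours FANCM and FANCB, both at 1.36 TPM, lay within its spread. With PK9328, RAD52 reached 5.70 ± 0.990 TPM, and with MS172 it stood at 0.965 ± 0.112 TPM. Short transcripts with few reads weigh heavily in these sums. In MS172 library 2, 1.3 estimated reads of RAD52-213 (399 bases) gave 0.365 TPM, against 0.355 TPM from 18.5 reads of RAD52-202. By counts, the rise of RAD52 with PK9328 against DMSO was 1.65-fold.

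The 43 other genes of recombination and of the Fanconi pathway moved in both directions with MS172. Of the 42 that were tested, 8 rose and 14 fell with MS172 against DMSO, 3 rose and 1 fell with PK9328 against DMSO, and 10 were higher and 19 lower with MS172 against PK9328. These are 19.0% and 33.3%, 7.14% and 2.38%, and 23.8% and 45.2%. Over all genes, the shares were 17.9% and 17.2%, 7.98% and 7.48%, and 23.3% and 24.4%. The shares that rose or were higher are thus near those of all genes. Their median with MS172 against DMSO was -0.18 (log2). FAN1, a crosslink nuclease, fell by 0.63 ± 0.08 with MS172 (SE, edgeR adjusted p = 7.93e-07). MAD2L2, a subunit of the shieldin complex and of a bypass polymerase, rose by 0.29 ± 0.04 (adjusted p = 2.17e-06). ERCC1, a nuclease subunit, rose by 0.20 ± 0.04, and FAAP20 of the core complex rose by 0.23 ± 0.05 (adjusted p = 8.28e-05 for ERCC1 and 0.000196 for FAAP20). With PK9328, TOP3A, a topoisomerase that works with BLM, rose by 0.33 ± 0.05 (adjusted p = 7.15e-05), and RPA1, which coats single-stranded DNA, fell by 0.17 ± 0.04 (adjusted p = 0.00103). Both come from the fit without fragment length as a covariate, and few PK9328 calls over all genes remained with it. SLX1A and SLX1B are near-identical copies, and their values are uncertain.

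Genes of DNA replication and of the step from G1 to S are given beside the members, since many repair genes are expressed in the same cell cycle phase. Of 28 such genes, 6 rose (21.4%) and 2 fell (7.14%) with MS172 against DMSO, with a median of -0.02 (log2). Over all genes, 17.9% rose and 17.2% fell with MS172, and 7.98% rose and 7.48% fell with PK9328. With PK9328 against DMSO 0 rose and 11 fell (39.3%) by edgeR, with a median of -0.15. There were 0 rises at an unadjusted p under 0.05 as well, and DESeq2 and limma-voom each gave 0 rises and 10 falls. With MS172 against PK9328, 17 were higher (60.7%) and 0 lower by edgeR, with a median of 0.18. Of all genes, 23.3% were higher and 24.4% lower in that comparison. There 1 of the 28 was lower at an unadjusted p under 0.05, and DESeq2 and limma-voom each gave 16 higher and 0 lower. PCNA, the sliding clamp of replication, had 116 ± 2.30 CPM with MS172, 83.8 ± 1.16 CPM with PK9328 and 101 ± 2.71 CPM with DMSO (SD, n = 3 each). It rose by 0.19 with MS172 (edgeR adjusted p = 0.000379) and fell by 0.28 with PK9328 (adjusted p = 8.71e-06), both against DMSO on the log2 scale. The PK9328 libraries had the shorter estimated fragments. With fragment length as a covariate, edgeR called only 109 of all genes higher and 66 lower with PK9328 against DMSO. How the 28 genes stood in that fit is not given here.

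Of the members' transcripts, those of EXO1 are described for the split of their reads, and they were singled out after the values were seen. EXO1, the exonuclease that extends resection, has a coding transcript EXO1-202 with 16 exons that starts 551 bases upstream of EXO1-201, with 14 exons. EXO1-202 took 29.3%, 48.3% and 29.03% of the gene's reads with MS172, 75.4%, 65.3% and 71.5% with PK9328 and 33.7%, 47.2% and 46.2% with DMSO. EXO1-201 took 68.2%, 51.7% and 69.9% with MS172, 19.4%, 29.4% and 19.1% with PK9328 and 59.8%, 50.4% and 49.7% with DMSO. The PK9328 libraries stood apart from the others in both shares, while MS172 and DMSO overlapped. The gene as a whole gave 0.0064 ± 0.083 with PK9328 against DMSO (log2, SE, edgeR adjusted p = 0.972). The PK9328 libraries also had the shorter estimated fragments, whose part in these shares was not tested.

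The start regions of both transcripts are shown because the shares differ between them. They are RefSeq windows of GRCh38.p14 on the plus strand, with the same capitals as above, at chr1:241847954-241848253 for EXO1-202, whose annotated start lies 24 bases from that of the window, and at chr1:241848481-241848780 for EXO1-201.
EXO1-202: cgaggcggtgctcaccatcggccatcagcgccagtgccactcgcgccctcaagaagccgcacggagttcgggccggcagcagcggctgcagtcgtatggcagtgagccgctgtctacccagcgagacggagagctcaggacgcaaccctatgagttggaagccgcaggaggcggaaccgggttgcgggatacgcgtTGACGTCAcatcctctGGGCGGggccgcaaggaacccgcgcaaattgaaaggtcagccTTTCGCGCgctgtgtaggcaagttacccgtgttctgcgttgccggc
EXO1-201: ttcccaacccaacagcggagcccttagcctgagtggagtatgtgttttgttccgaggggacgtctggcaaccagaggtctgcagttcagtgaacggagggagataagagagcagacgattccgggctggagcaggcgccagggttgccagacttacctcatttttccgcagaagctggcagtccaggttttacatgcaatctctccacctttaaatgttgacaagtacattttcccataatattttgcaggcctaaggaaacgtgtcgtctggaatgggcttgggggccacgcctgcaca
The upstream window held 1 SP1 box, 1 E2F and 1 ATF/CREB match with 65.0% G and C, and the downstream window held none of the 6 motifs with 52.7% G and C.

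For XRCC2, the coding transcript XRCC2-201 had 32.7, 25.4 and 25.8 estimated reads with MS172, 118, 109 and 84.0 with PK9328 and 64.8, 91.4 and 53.3 with DMSO. Most reads were assigned to XRCC2-202, annotated as a processed transcript without a coding sequence, at 69.4%, 71.1% and 78.5% with MS172, 59.8%, 63.7% and 67.0% with PK9328 and 70.0%, 70.1% and 72.5% with DMSO. PK9328 lay below the other groups in this share. Of 53 member transcripts with a mean share of at least 20%, the shares did not overlap for 4 with MS172 against DMSO, for 7 with PK9328 against DMSO and for 13 with MS172 against PK9328. Over all genes, 17.2%, 13.7% and 23.4% of such transcripts did not overlap in the same 3 comparisons, so the members' counts are near the background or below it.

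**Figure D4:**
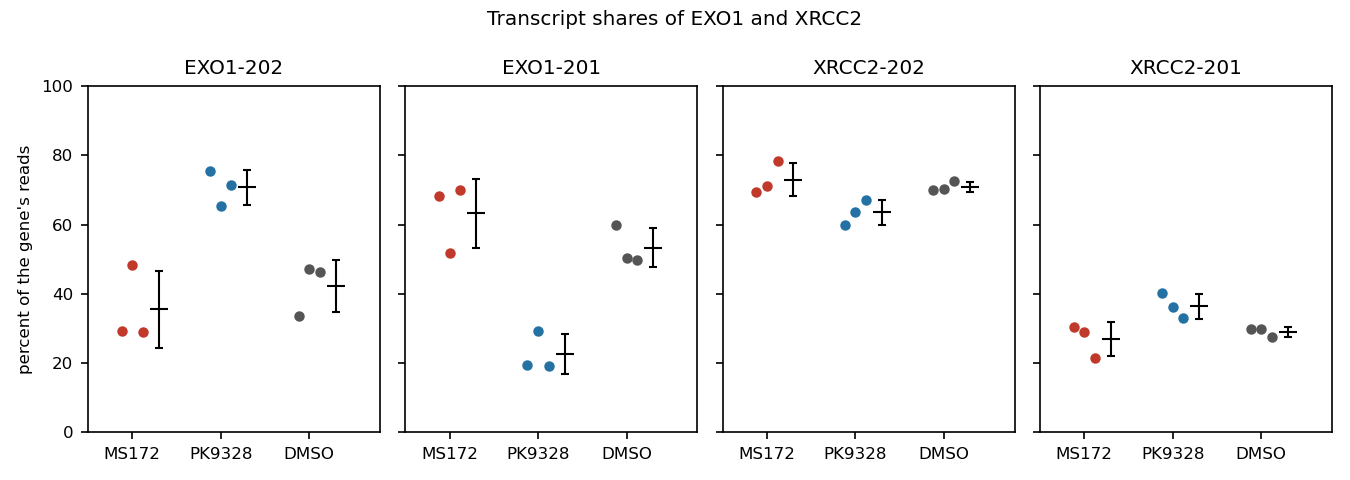
Share of the gene's estimated reads, in percent, taken by EXO1 and XRCC2 transcripts in each library (points), with MS172 on the left, PK9328 in the middle and DMSO on the right. EXO1-202 takes 65.3% to 75.4% with PK9328 and 29.03% to 48.3% in the other libraries.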

How the data were processed

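Poly(A)-selected RNA was measured in 9 libraries, 3 per group, grouped by their titles. Per the file headers, the deposited tables give an estimated count, a TPM value, a length and an effective length for 197653 transcripts per library. The TPM values were scaled by the authors to length and library. FastQC 0.11.8 and the build hg38 come from the submitters' processing notes. Which program estimated the counts is not given in the sources used here.

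Matching to GENCODE 29 used the transcript identifiers, and 193348 of 197653 matched. The rest held 0.356% to 0.382% of reads and was left out. Estimated counts were summed per gene and rounded to whole numbers. Genes were tested with edgeR 4.0.16 in R 4.3.3 (filterByExpr, TMM, robust quasi-likelihood fit of all 9 libraries, 6 residual degrees of freedom), with Benjamini-Hochberg adjustment over 13914 genes and a call at adjusted p under 0.05. The common biological coefficient of variation was 0.0439. CPM values use TMM-scaled library sizes, SE comes from the fit, and intervals are 95% intervals. The procedure was checked on simulated counts.

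The members and gene lists were chosen with earlier results of these data known. The named genes are RAD52, BRCA1 and BRCA2, members called without overlap between groups, the lowest and highest of each role, and up to 4 called genes of each other list. MDM2 and the EXO1, XRCC2 and PALB2 transcripts were named beyond that rule. Alternatives were DESeq2 1.42.0, limma-voom (limma 3.58.1), RLE normalisation, other filters, counts from length-scaled TPM, fragment length as a covariate, the replicate number as a block and each library left out. Promoter windows are RefSeq's on GRCh38.p14.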

Additional observations from a re-analysis of the deposited data

How the results depend on the processing

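With MS172 against DMSO, 7 to 10 of the members were lower and 0 higher under all 15 alternatives, and RAD51D, XRCC2, BARD1 and FANCF were called in each. The members' median was -0.16 and moved to -0.198 with counts from length-scaled TPM. In that setting PALB2 turned to 0.111 against DMSO and 0.155 against PK9328, and BLM turned to 0.0155 against DMSO. The causes were not tested. With PK9328 against DMSO, fragment length as a covariate gave 0 higher, 0 lower and a median of 0.0849, and length-scaled TPM gave 0 lower. Leaving out single libraries gave 1 to 3 higher and 0 to 1 lower. With MS172 against PK9328, the covariate gave 0 higher, 6 lower and a median of -0.275, and length-scaled TPM gave 9 lower. Leaving out single libraries gave 1 to 2 higher, 12 to 15 lower and medians of -0.219 to -0.124. By TPM, the share of RAD52-202 was 34.8% with MS172 and 20.4% with PK9328. Replicate numbers were not shown to pair libraries, since deviations of same-numbered libraries correlated at -0.057 to 0.017. With the replicate number as a block, the counts were 9 lower with MS172 against DMSO, 3 higher and 1 lower with PK9328 against DMSO, and 2 higher and 14 lower with MS172 against PK9328. RAD52 rests on 28 to 45 estimated reads per MS172 library, which limits what can be said of its transcripts.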

Other observations

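Genes that act beside recombination moved in part. Of 12 end-joining genes, 3 fell and 0 rose with MS172 against DMSO by edgeR, with 0 higher at an unadjusted p under 0.05 and 0 by DESeq2 and limma-voom, and 4 fell and 1 rose with PK9328 against DMSO. Over all genes, 17.2% fell and 17.9% rose with MS172, and 7.48% fell and 7.98% rose with PK9328. DCLRE1C, the nuclease Artemis that opens hairpin ends, fell by 0.43 ± 0.12 with MS172 (log2, SE, edgeR adjusted p = 0.00625) and rose by 0.38 ± 0.11 with PK9328 (adjusted p = 0.0183). POLQ, the polymerase of microhomology-mediated joining, fell by 0.47 ± 0.13 with MS172 (adjusted p = 0.00677). XRCC5, a subunit of Ku that binds broken ends, fell by 0.18 ± 0.04 with PK9328 (adjusted p = 0.000647), and PARP1, a sensor of breaks, fell by 0.16 ± 0.03 (adjusted p = 0.000904). The PK9328 values here and in the next paragraph come from the fit without fragment length as a covariate. With it, edgeR called only 109 of all genes higher and 66 lower with PK9328 against DMSO.

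Of 21 genes of the damage checkpoint and of chromatin around breaks, 1 rose and 5 fell with MS172 against DMSO, and 2 rose and 2 fell with PK9328 against DMSO. DESeq2 called 1 higher and 2 lower with MS172 and 1 higher and 1 lower with PK9328. Over all genes, 17.9% rose and 17.2% fell with MS172, and 7.98% rose and 7.48% fell with PK9328. CLSPN, which helps ATR activate its target kinase CHEK1, fell by 0.40 ± 0.08 with PK9328 (log2, SE, edgeR adjusted p = 0.00106), and RNF168, a ubiquitin ligase at breaks, rose by 0.20 ± 0.05 (adjusted p = 0.00557). Of 9 p53 targets tied to repair, 1 rose and 2 fell with MS172 against DMSO, and 3 rose and 0 fell with PK9328 against DMSO by edgeR, where 1 was lower at an unadjusted p under 0.05 and 0 by DESeq2 and limma-voom. CDKN1A, an inhibitor of cyclin-dependent kinases, rose by 0.47 ± 0.08 with MS172 (adjusted p = 6.84e-05) and by 0.68 ± 0.08 with PK9328 (adjusted p = 5.46e-07). GADD45A, a damage response gene, rose by 0.72 ± 0.04 with PK9328, and PPM1D, a phosphatase that switches the damage response off, rose by 0.45 ± 0.07 with PK9328 and fell by 0.24 ± 0.07 with MS172. MDM2, the ubiquitin ligase of p53, gave 0.01 ± 0.16 with MS172 and -0.38 ± 0.16 with PK9328, neither past the test.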
